A study of Mus musculus with 6 samples.

Results

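Matrix Gla protein and 9 genes of the elastic fibre were followed in RNA of mouse lung endothelial cells. The 10 genes were taken by name, for their function, from the 24520 genes of the deposited tables: Mgp, Eln, Lox, Ltbp4, Fbln5, Efemp2, Fbln1, Fbln2, Fbn1 and Emilin1. The set was chosen by function around Mgp and Eln with the difference of these libraries between the KO and WT labels already known, so all differences between the labels below are given as a description, and nothing is supported by them. Cells that line blood vessels were sorted from lung by flow cytometry, and their RNA was amplified and sequenced in 3 libraries from mice labelled KO and 3 from mice labelled WT for Dnmt3a, an enzyme that sets new DNA methylation. The labels name no allele, driver of deletion, strain, age or sort gate, and they do not say whether each library is a separate animal, so the errors below measure the spread between these libraries, which may be technical in part.

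Elastic fibres give arteries and lung tissue their recoil. Their core is elastin, secreted as the soluble monomer tropoelastin and laid down on a scaffold of fibrillin microfibrils, where fibulins and a latent TGF-beta binding protein help to place it and lysyl oxidase cross-links it. Matrix Gla protein is a small secreted protein whose glutamates are carboxylated by a vitamin K-dependent enzyme; it binds bone morphogenetic proteins, and in mice its loss leads to calcified arteries. Smooth muscle cells and fibroblasts are the main makers of elastic fibres, and endothelium of large vessels expresses several of the same genes.

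The libraries held 28136194 to 39999172 estimated counts, and the endothelial adhesion gene Pecam1 lay between 999 and 1215 TPM (abundance scaled for transcript length and library depth) in all of them. Dnmt3a itself went against the labels: it had 5090, 4878 and 4750 estimated counts in the libraries labelled KO (replicates 1, 2 and 3) and 1235, 1079 and 1198 in those labelled WT. Totals per gene do not show which exons the reads came from, so they do not tell a transcript that lacks exons from an exchanged label. The groups are therefore called by their labels throughout, and a positive log2 fold change means a higher value under the KO label. Xist and Y-linked genes showed female replicates 1 and male replicates 2 and 3 under both labels.

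Promoter sequence from RefSeq (GRCm38.p6) was at hand for 7 of the 10 genes; Mgp, Eln and Lox had no entry. The windows of 300 bases, 250 before the start and 50 after it, held between 6 CG dinucleotides at Emilin1, with at least as many in 56.4% of 32851 promoter windows, and 41 at the innermost start of Efemp2, with at least as many in 3.46%. CG dinucleotides are the sites that DNA methyltransferases act on. The hexamer GGGCGG, searched on both strands, was in at least 1 window of 6 of the 7 genes. It was in 35.7% of all windows, a share per window that is unlike a count of genes with several windows. Fbln1 and Fbln5 each had a window with it and a window without it. TATAAA was in no window of the 7 genes and in 13.6% of all windows. The 250 bases before the outermost listed start are shown for the 3 fibulin genes where they lie outside the annotated gene, because this family holds genes with KO above WT (Fbln1), KO below WT (Efemp2) and overlapping labels (Fbln5), none of which passed by edgeR; CG is in capitals, 5′ to 3′ on the strand of the gene.
Fbln5 (chr12:101819120-101819369, minus strand): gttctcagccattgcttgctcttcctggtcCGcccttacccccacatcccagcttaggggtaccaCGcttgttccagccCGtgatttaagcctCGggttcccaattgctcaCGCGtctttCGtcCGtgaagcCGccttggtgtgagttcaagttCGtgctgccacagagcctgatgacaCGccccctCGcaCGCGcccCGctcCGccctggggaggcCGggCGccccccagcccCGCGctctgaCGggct
Efemp2 (chr19:5473696-5473945, plus strand): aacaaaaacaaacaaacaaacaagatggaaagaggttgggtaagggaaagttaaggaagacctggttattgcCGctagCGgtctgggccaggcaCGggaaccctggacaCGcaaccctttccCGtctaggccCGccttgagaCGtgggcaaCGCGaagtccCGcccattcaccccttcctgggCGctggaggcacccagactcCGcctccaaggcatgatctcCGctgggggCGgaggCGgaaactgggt
Fbln1 (chr15:85205699-85205948, plus strand): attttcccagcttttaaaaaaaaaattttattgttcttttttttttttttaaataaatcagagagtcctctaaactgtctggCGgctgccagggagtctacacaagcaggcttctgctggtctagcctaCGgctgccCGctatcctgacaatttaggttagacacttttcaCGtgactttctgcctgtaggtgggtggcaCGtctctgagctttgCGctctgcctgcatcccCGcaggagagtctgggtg
These stretches held 21 CG dinucleotides at Fbln5, 15 at Efemp2 and 7 at Fbln1. Methylation of these sites was not analysed here.

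In level per length, elastin, matrix Gla protein and fibulin-2 RNA were the 3 most abundant of the set in every library. Their order differed between the labels. Eln led, followed by Mgp and then Fbln2, in all 3 libraries labelled KO, whereas Fbln2 led, followed by Eln and then Mgp, in all 3 labelled WT. Summed over the 10 genes, the level was 2577, 1405 and 1941 TPM in the libraries labelled KO (replicates 1, 2 and 3) and 1056, 1081 and 1211 TPM in those labelled WT. Eln and Mgp together made up 63.1% to 74.2% of that sum under the KO label and 35.9% to 43.3% under the WT label. At the other end, Lox and Fbln1 were last in every library. Fbln1 stayed between 0.607 and 1.29 TPM in libraries labelled KO and between 0.239 and 0.494 TPM in those labelled WT, on 36 to 75 estimated counts under the KO label and 16 to 40 under the WT label.

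**Figure D1:**
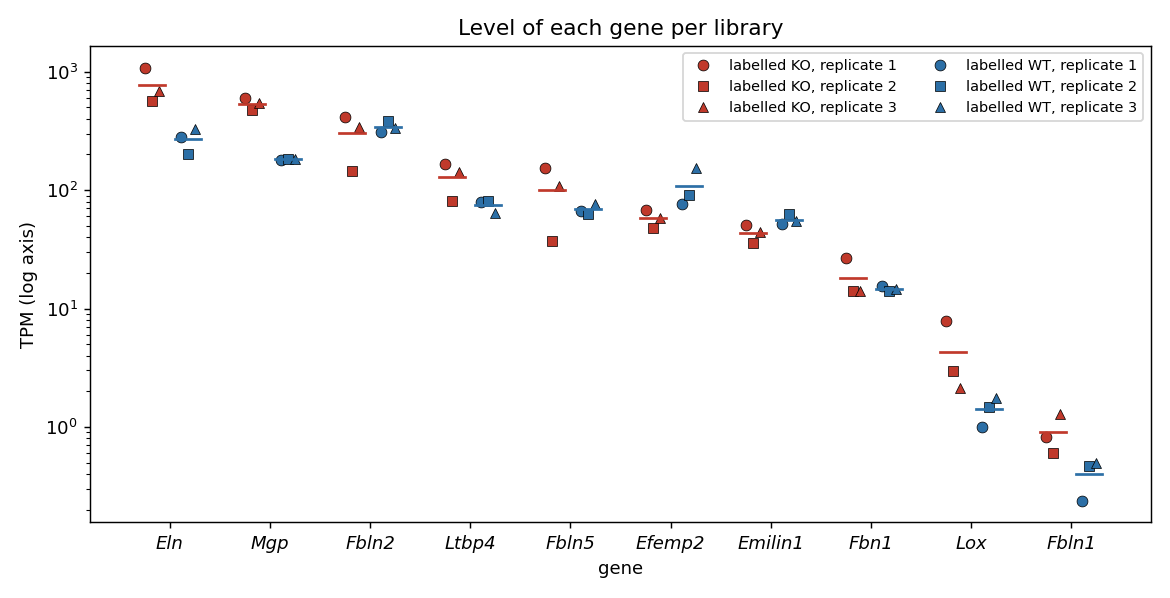
Level of each of the 10 genes in TPM on a log axis, with the libraries labelled KO left of those labelled WT; points are libraries and lines are group means (n = 3 each). The KO points of Mgp and Eln lie above all WT points, and KO replicate 2, the red square, is the lowest KO point for 9 of the 10 genes.

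**Figure D2:**
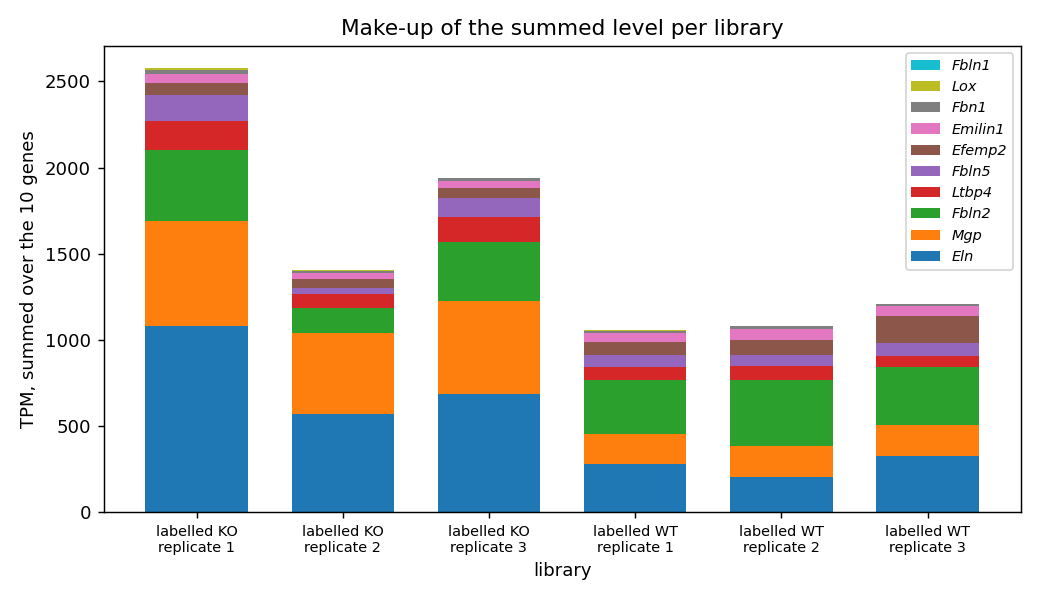
TPM of the 10 genes stacked per library, from 0. The bars reach 1405 to 2577 TPM under the KO label and 1056 to 1211 TPM under the WT label, and the blue and orange parts, Eln and Mgp, are larger in every KO bar than in any WT bar.

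Mgp (ENSMUSG00000030218, mm10 chromosome 6, 136872435 to 136875823, minus strand) had 604, 471 and 541 TPM in the libraries labelled KO and 178, 184 and 183 TPM in those labelled WT. The KO values lay well apart from the WT values, and the WT values were nearly equal. In CPM, counts scaled for library size and not for length, it averaged 116 ± 11.6 under the KO label and 41.1 ± 2.38 under the WT label (SD, n = 3 each). This is a log2 fold change of 1.49 with an SE of 0.12. In bulk RNA, more cells of a type and more RNA per cell cannot be told apart. In the edgeR fit over all genes Mgp rose and was the only one of the 10 to be called; 0.0341% of the 14667 tested genes were called, 0.0205% higher and 0.0136% lower. As these libraries led to the choice of the genes, nothing is read from that call. Its fold change was nearly the same whichever library was left out, 1.42 to 1.57 on the log2 scale, but the call ended without KO replicate 1, KO replicate 3 or any 1 of the 3 WT replicates and remained without KO replicate 2. In male libraries alone the log2 fold change was 1.38, not past the threshold.

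Eln (ENSMUSG00000029675, chromosome 5, 134702593 to 134747323, minus strand), which encodes tropoelastin, had 1083, 571 and 684 TPM in the libraries labelled KO and 279, 204 and 326 TPM in those labelled WT. No KO library overlapped a WT library, and both groups spread more widely than for Mgp: the highest library had 1.90 times the lowest under the KO label and 1.60 times under the WT label, against 1.28 and 1.03 times for Mgp. Its log2 fold change was 1.44 (SE 0.28), and Eln did not pass by edgeR. DESeq2, which called 2.78% of 14853 genes (1.47% higher, 1.31% lower), called it. Per length, Mgp RNA amounted to 0.558 to 0.825 of Eln RNA in libraries labelled KO and to 0.563 to 0.904 in those labelled WT. These ranges overlap, although both genes were higher under the KO label.

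Lox (ENSMUSG00000024529, chromosome 18, 52516067 to 52529867, minus strand), the enzyme that cross-links elastin and collagen, was scarce, at 7.88, 2.94 and 2.14 TPM in the libraries labelled KO and 0.993, 1.49 and 1.76 TPM in those labelled WT. KO replicate 1 stood well above the other 5 libraries. The groups did not overlap, but KO replicate 3 was close to WT replicate 3. Its log2 fold change of 1.504 had an SE of 0.50, did not pass, and was 0.79 without KO replicate 1.

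RNA of the proteins that guide tropoelastin onto microfibrils did not move as a block. Fbln5 (ENSMUSG00000021186, chromosome 12, 101746565 to 101819055, minus strand), a fibulin needed for elastic fibre assembly in mice, had 152, 37.3 and 109 TPM in the libraries labelled KO and 66.5, 63.0 and 76.7 TPM in those labelled WT. KO replicates 1 and 3 were above every WT library and KO replicate 2 was below every WT library, so the log2 fold change was 0.46 (SE 0.43). Leaving out KO replicate 2 gave 0.85 and leaving out KO replicate 1 gave 0.06, and Fbln5 passed in neither fit.

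Ltbp4 (ENSMUSG00000040488, chromosome 7, 27305136 to 27337692, minus strand), which binds latent TGF-beta and fibulin-5, had 166, 80.1 and 143 TPM under the KO label and 79.5, 80.3 and 64.2 TPM under the WT label. KO replicates 1 and 3 were above all WT libraries, and KO replicate 2 was among them. Its log2 fold change of 0.72 (SE 0.24) did not pass, and leaving out KO replicate 2 gave 0.97, KO replicate 1 0.54. Fbln2 (ENSMUSG00000064080, chromosome 6, 91212455 to 91272540, plus strand), a fibulin of vessel walls, had 417, 144 and 344 TPM in the libraries labelled KO and 309, 380 and 335 TPM in those labelled WT. Again KO replicate 2 was the lowest of all 6 libraries, while KO replicates 1 and 3 lay above or within the WT values. It had a log2 fold change of -0.26 (SE 0.34) on all libraries, 0.07 without KO replicate 2, -0.53 without KO replicate 1 and -0.62 in males alone, and passed in none of these fits.

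Efemp2 (ENSMUSG00000024909, chromosome 19, 5473954 to 5482517, plus strand), a fibulin that brings lysyl oxidase to tropoelastin, had its lower values under the KO label. It had 67.9, 48.1 and 58.0 TPM in the libraries labelled KO and 76.5, 91.4 and 155 TPM in those labelled WT. Every KO library was below every WT library, and WT replicate 3 stood far above the other WT libraries. The log2 fold change was -0.99 (SE 0.30), not past the threshold by edgeR and past it by DESeq2, and -0.57 without WT replicate 3. Its last bases overlap the last bases of Mus81, a DNA repair nuclease gene on the opposite strand, which had 718 to 1114 counts in libraries labelled KO and 971 to 1648 in those labelled WT; reads of the shared stretch cannot be assigned without strand. Fbln1 (ENSMUSG00000006369, chromosome 15, 85205949 to 85286535, plus strand) was the least abundant fibulin of the chosen set. Its log2 fold change of 1.07 (SE 0.51), with no overlap between the labels, did not pass. It was 0.70 without KO replicate 3 and 0.44 by limma on log2(TPM + 1), a scale that understates the change of low genes.

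Neither gene of the microfibril and its boundary passed. Fbn1 (ENSMUSG00000027204, chromosome 2, 125300594 to 125507993, minus strand), the fibrillin that forms the microfibril, had 26.7, 14.0 and 14.1 TPM in the libraries labelled KO and 15.5, 14.1 and 14.6 TPM in those labelled WT. Apart from KO replicate 1, all libraries lay between 14.0 and 15.5 TPM, and the log2 fold change was -0.13 without that library and 0.22 (SE 0.24) with it. Emilin1 (ENSMUSG00000029163, chromosome 5, 30913402 to 30921277, plus strand), a glycoprotein at the boundary of elastin and microfibrils, had 50.8, 35.6 and 44.6 TPM under the KO label and 51.2, 62.5 and 54.8 TPM under the WT label. The groups were separate by a narrow margin between KO replicate 1 and WT replicate 1, and the log2 fold change of -0.44 (SE 0.14) did not pass.

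**Figure D3:**
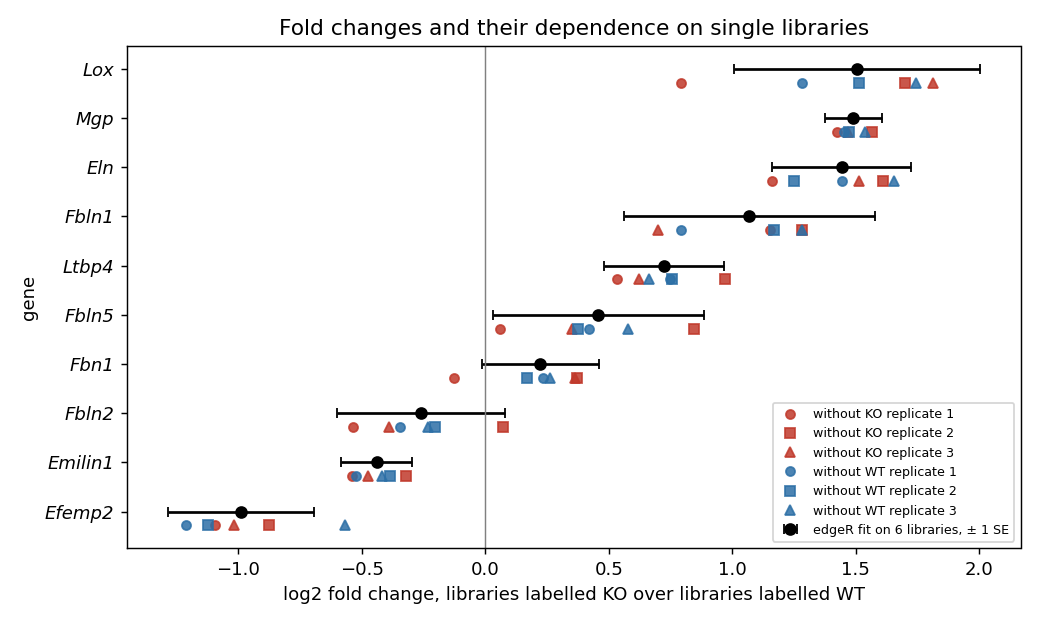
Log2 fold change of each gene, libraries labelled KO over libraries labelled WT, from edgeR on all 6 libraries (black, ± 1 SE), with the value after leaving out each library below it. Mgp stays within 1.42 to 1.57. The value of Lox shifts with KO replicate 1, that of Fbln5 with KO replicates 1 and 2, and that of Efemp2 with WT replicate 3.

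Of the 10 genes, all of which passed the filter on low counts, 4 had every KO library above every WT library (Mgp, Eln, Lox and Fbln1) and 2 had every KO library below (Efemp2 and Emilin1). Of all tested genes 20.3% did not overlap, 10.8% with KO above and 9.44% with KO below. Their log2 fold changes ran from -0.99 to 1.504 with a median of 0.59, against a median of 0.01 over all tested genes. DESeq2 called 3 of the 10, Mgp and Eln higher and Efemp2 lower, beside 2.78% of all genes it tested (1.47% higher, 1.31% lower).

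KO replicate 2 had the lowest CPM of the KO libraries for 9 of the 10 genes, against 36.6% of all tested genes. Its log2 ratio to the mean of the other KO libraries was -1.78 for Fbln5, -1.37 for Fbln2 and -0.91 for Ltbp4. For Mgp it was -0.25 and for Emilin1 -0.39. Lox was the exception, with its lowest KO value in replicate 3. Under the WT label no single library was lowest so often: WT replicate 1 was lowest for 6 of the genes, replicate 2 for 3 and replicate 3 for 1.

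The deposited counts and TPM together give a mean effective transcript length for each gene, which moves when the mix of transcripts does. After scaling each library by its median over 11154 genes, that length differed between the highest and lowest of the 6 libraries by 0.036% to 0.093% of the WT mean for Ltbp4, Fbln2 and Fbn1, by 1.78% for Eln, by 3.44% for Fbln5 and by 3.81% for the scarce Fbln1. The difference was 0.18% for Emilin1, 1.53% for Lox and 1.92% for Efemp2, and none was visible for Mgp. The median over the 11154 genes was 0.80%.

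Other genes of elastic fibres and of matrix Gla protein biology were counted from 6 lists. Beside them, all tested genes had 3 called higher and 2 lower by edgeR and 1855 (12.6%) with an unadjusted p under 0.05. DESeq2 called 1.47% of all genes it tested higher and 1.31% lower. Among 19 tested relatives of fibrillins, fibulins, emilins and microfibril-associated proteins of 22 listed, 0 were called (4 had an unadjusted p under 0.05, DESeq2 called 0), and the median log2 fold change was -0.07. Mfap2, a microfibril-associated glycoprotein and the most abundant of them, had 1892, 2936 and 2153 TPM in the libraries labelled KO and 2070, 2255 and 2690 TPM in those labelled WT, more than any of the 10 genes, with groups that overlapped. Bgn, the proteoglycan biglycan, had a log2 fold change of -0.14 (SE 0.29).

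Among 11 lysyl oxidases and processing enzymes 0 were called by edgeR (3 at an unadjusted p under 0.05) and the median was -0.19. Bmp1, the protease that activates lysyl oxidase, had a log2 fold change of -0.04 (SE 0.18), and Postn, a matricellular protein, one of -0.23 (SE 0.60). DESeq2 called 2 of these genes higher, which are named after their values were seen. Tll1, a protease related to Bmp1, had 6.76, 3.14 and 5.09 TPM under the KO label and 2.45, 1.51 and 1.10 TPM under the WT label, and Pcolce2, an enhancer of procollagen processing, had 7.30, 7.63 and 6.61 TPM under the KO label and 2.57, 2.71 and 1.03 TPM under the WT label. Neither overlapped between the labels.

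Of the Gla proteins and vitamin K enzymes, 14 of 19 were tested and 0 were called by edgeR (2 at an unadjusted p under 0.05) or DESeq2, with a median of -0.04. For Vkorc1, which recycles vitamin K, the log2 fold change was -0.10 (SE 0.14), and for Pros1, the anticoagulant protein S, it was 0.05 (SE 0.21). The carboxylase gene Ggcx, named here as the enzyme that acts on matrix Gla protein and not by its level, had 32.8, 35.2 and 26.4 TPM in libraries labelled KO and 32.3, 35.7 and 42.5 TPM in those labelled WT, so the groups overlapped.

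Genes of the BMP pathway, whose ligands matrix Gla protein binds, had a median of 0.01 over 18 tested genes of 20, with 0 called by edgeR (1 at an unadjusted p under 0.05) or DESeq2. For Id3, a transcriptional target of BMP signals, the log2 fold change was 0.02 (SE 0.18), and for Acvrl1, a BMP receptor of endothelium, it was -0.13 (SE 0.17). Of 11 calcification regulators 7 were tested and 0 were called by edgeR (2 at an unadjusted p under 0.05). Their median was -0.15. Tnfrsf11b, the decoy receptor osteoprotegerin, had 17.8, 16.1 and 13.1 TPM in libraries labelled KO and 26.4, 25.1 and 17.8 TPM in those labelled WT. These overlap by a small margin between KO replicate 1 and WT replicate 3, while in CPM the groups were separate. It was called lower by DESeq2, which also called Enpp1, a maker of pyrophosphate, higher (named after its values were seen); Sox9, a transcription factor of cartilage, had a log2 fold change of -0.60 (SE 0.35). Elastases and their inhibitors had a median of 0.08 over 9 tested genes of 15, with 0 called by edgeR (1 at an unadjusted p under 0.05) or DESeq2; Timp3, an inhibitor bound to matrix, had a log2 fold change of 0.38 (SE 0.34), and Ctsl, a cysteine protease, one of 0.11 (SE 0.23).

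**Figure D4:**
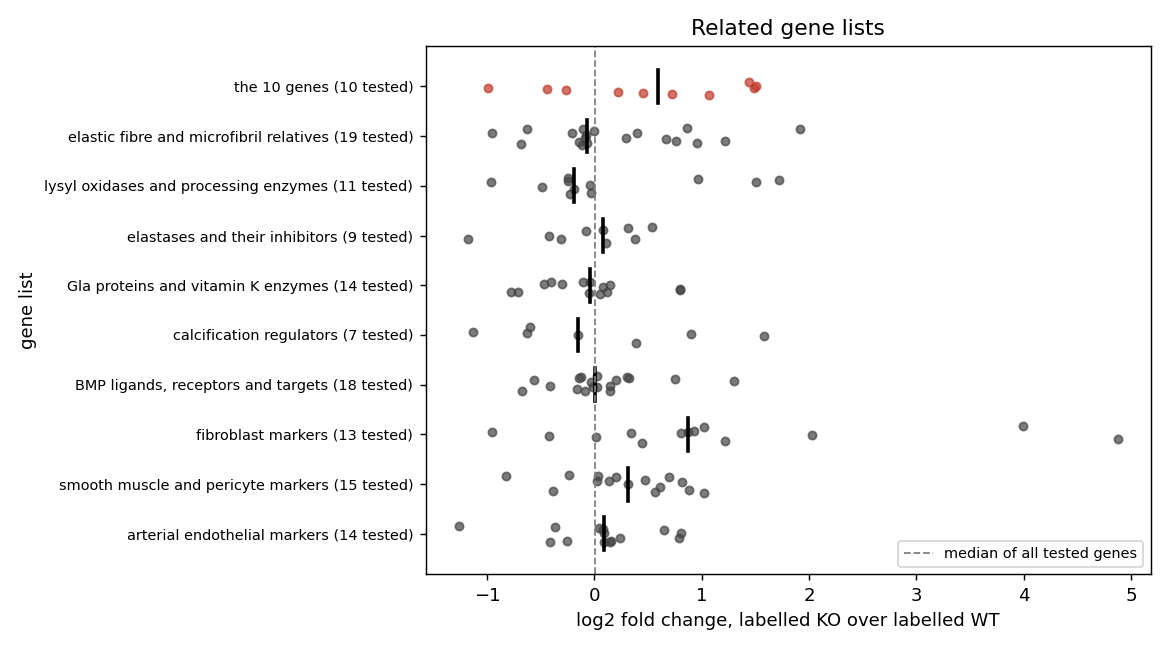
Log2 fold change of each tested gene, labelled KO over labelled WT, by gene list, with list medians as black bars. The 10 genes have a median of 0.59, the 6 related lists have medians from -0.19 to 0.08 and the fibroblast markers have a median of 0.88.

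Cell types that make elastic fibres outside the endothelium were read from marker lists. Fibroblast markers summed to 488, 355 and 328 CPM under the KO label and 221, 176 and 240 CPM under the WT label. Without Col3a1 they summed to 344, 222 and 204 CPM under the KO label and 163, 123 and 179 CPM under the WT label, so both sums moved with the labels without overlap. Of 13 tested fibroblast markers 11 had a positive log2 fold change, against 50.9% of all tested genes, and the median was 0.88. By edgeR 1 was called higher (Col3a1), and 6 had an unadjusted p under 0.05 (all higher). Of all tested genes 12.6% had an unadjusted p under 0.05, in either direction. DESeq2 called 5 higher and 0 lower, against 1.47% higher and 1.31% lower of all genes it tested. Every KO library was above every WT library for 7, against 10.8% of all tested genes. The log2 fold change of Col3a1 was 1.22 (SE 0.11) and 1.16 to 1.27 without single libraries, but its call ended in each of those 6 fits, with sex as a covariate, with the replicate number as a block and in males alone. The most abundant of them were Col3a1, a fibrillar collagen chain, with 45.7, 39.9 and 37.0 TPM under the KO label and 17.3, 15.9 and 16.7 TPM under the WT label, and Col1a2, with 48.7, 25.1 and 24.2 TPM under the KO label and 18.2, 11.5 and 20.2 TPM under the WT label. Dcn, the proteoglycan decorin and a defining fibroblast marker, had 78, 78 and 73 counts in the libraries labelled KO and 4, 4 and 8 in those labelled WT, and Pdgfra, a receptor of fibroblasts, had 196, 315 and 500 counts under the KO label and 282, 334 and 258 under the WT label, which overlap. The part of such RNA in the levels of Mgp, Eln, Lox and Fbln1 was not tested. Per length, Mgp RNA was 11.8 to 14.6 times Col3a1 RNA in libraries labelled KO and 10.3 to 11.6 times in those labelled WT, and Eln RNA was 14.3 to 23.7 times under the KO label and 12.8 to 19.5 times under the WT label.

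Smooth muscle and pericyte markers had sums that overlapped between the labels. Their sum was 656, 586 and 153 CPM in the libraries labelled KO and 393, 133 and 545 CPM in those labelled WT. By edgeR 0 of 15 were called (0 at an unadjusted p under 0.05, DESeq2 called 0), and the median log2 fold change was 0.32. A positive log2 fold change was found for 12 of them and a negative one for 3, against 50.9% positive among all tested genes. For Acta2, the actin of smooth muscle, the log2 fold change was 0.32 (SE 0.79), and for Tagln, an actin-binding protein, it was 0.61 (SE 0.59). The smallest sums were in KO replicate 3 and WT replicate 2, and KO replicate 2 had the highest sum but 1. The part of smooth muscle and pericyte RNA in the levels of the 10 genes was not tested.

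Arterial endothelial markers other than the 10 genes summed to 4263, 3737 and 3355 CPM under the KO label and 4028, 4650 and 5888 CPM under the WT label. Of 14 tested, 0 were called by edgeR (4 at an unadjusted p under 0.05, DESeq2 called 2), and the median was 0.09. They went both ways: 10 had a positive and 4 a negative log2 fold change, against 50.9% positive among all tested genes. For 3 every KO library was above every WT library, against 10.8% of all tested genes. For 2 every KO library was below, against 9.44%. Of the DESeq2 calls 1 was higher, Vegfc, a lymphatic growth factor named after its values were seen, and 1 lower, Gja4. Among all genes it tested, DESeq2 called 1.47% higher and 1.31% lower. Gja4, an arterial connexin and the most abundant, had 1167, 895 and 716 TPM in libraries labelled KO and 1547, 1735 and 2941 TPM in those labelled WT, and Cxcl12, a chemokine of arterial endothelium, had a log2 fold change of -0.36 (SE 0.26). Pan-endothelial markers had a median of -0.08 with 0 of 12 called by edgeR (0 at an unadjusted p under 0.05) or DESeq2, and the most abundant were Egfl7, a secreted protein, at -0.18 (SE 0.19) on the log2 scale, and Cldn5, a tight junction protein, at 0.03 (SE 0.19).

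Alveolar type 2 markers, an epithelial contribution, summed to 783 to 3745 CPM in libraries labelled KO and 340 to 9632 CPM in those labelled WT, led by Sftpc and Lyz2. Leukocyte markers, led by Lyz1 and Cd68, summed to 24.2 to 80.7 CPM under the KO label and 16.8 to 162 CPM under the WT label. Mesothelial markers, led by Krt19 and Msln, summed to 2.40 to 9.94 CPM under the KO label and 2.17 to 35.6 CPM under the WT label. Chondrocyte markers, led by Hapln1 and Cnmd, summed to 13.9 to 27.5 CPM under the KO label and 22.7 to 27.2 CPM under the WT label. The median log2 fold change was -1.01 for alveolar type 2 markers, with 8 of 8 tested negative, and -1.62 for mesothelial markers, with 2 of 2 negative. It was -0.004 for leukocyte markers (3 of 6 negative) and 0.05 for chondrocyte markers (2 of 4 negative). None of the tested genes of these 4 lists was called by edgeR or DESeq2, or had an unadjusted p under 0.05. The cartilage gene Matn1 had 0 counts in all 6 libraries.

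**Figure D5:**
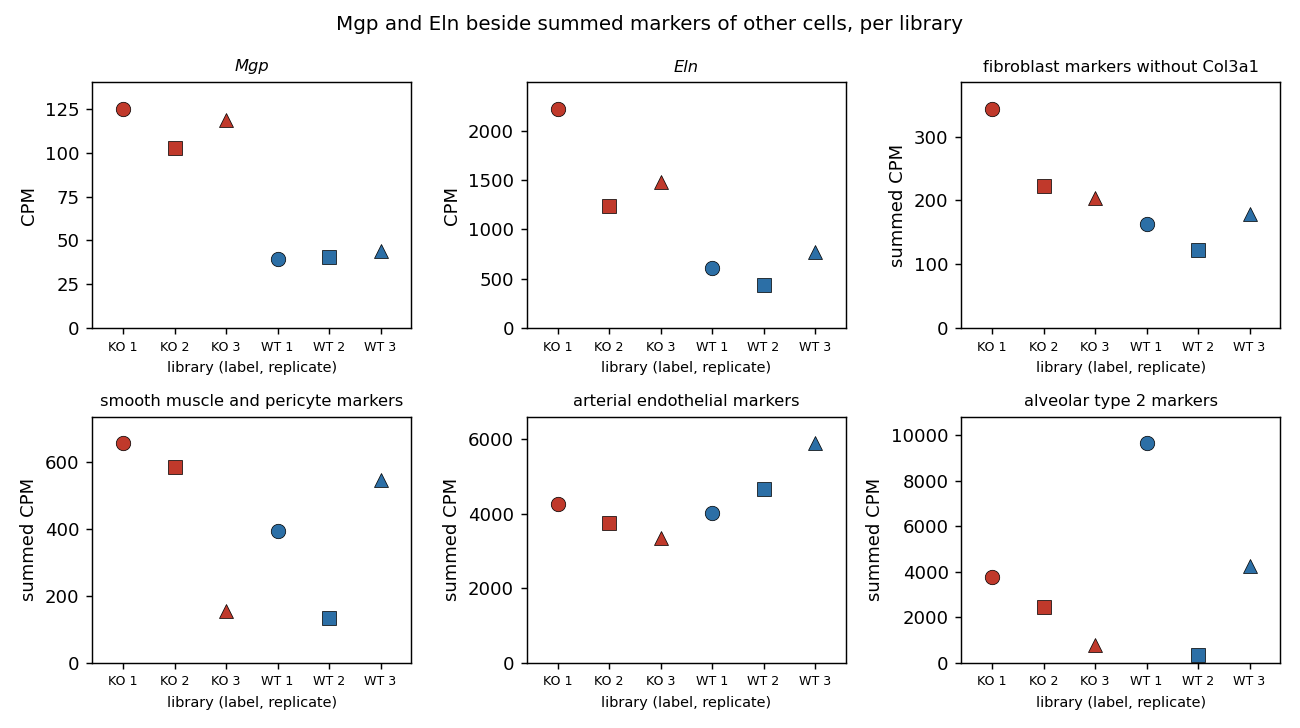
CPM of Mgp and Eln and summed CPM of marker lists per library, libraries labelled KO on the left (red) and labelled WT on the right (blue), axes from 0. The fibroblast sum without Col3a1 separates the labels, at 204 to 344 CPM under the KO label and 123 to 179 CPM under the WT label, while the smooth muscle, arterial and alveolar sums overlap between them.

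The profiles most like that of Mgp over the 6 libraries were found among 11645 genes by the root mean square difference of log2 CPM centred on each gene. The nearest was Prss23, a serine protease, at 0.15, followed by Trim30d at 0.16, Col3a1 at 0.17, Psd3 at 0.23 and Ces2g at 0.24, where the profile of Mgp itself spread by 0.75. Prss23 had 12.4, 12.6 and 13.3 CPM in libraries labelled KO and 4.68, 4.13 and 3.95 CPM in those labelled WT. Eln was in place 10 for Mgp (0.28). For Eln the nearest were Fgl2 at 0.22, Trim30d at 0.25, Vwf, the clotting factor made by endothelium, at 0.27, Mgp at 0.28 and Npnt, a matrix protein of the fibroblast list, at 0.29. The other genes of the set were farther from Eln, except Fbln1, whose mean count was under 50 and which was not compared. Lox was in place 70, Ltbp4 in place 140, Fbn1 in place 1043 and Fbln5 in place 2420. Emilin1, Fbln2 and Efemp2 were in places 9829, 9850 and 10963. Reads of Trim30d can be shared with its close paralogs.

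The nearest tested genes on each side of Mgp and Eln on the chromosome, a choice made after the data were in hand, had smaller fitted differences than Mgp and Eln. Around Mgp they were Art4, 14702 bases away, with a log2 fold change of 0.31 (SE 0.46), and Arhgdib, 47832 bases away on the other side, with 0.12 (SE 0.16). Around Eln they were Limk1, 13995 bases away, with 0.07 (SE 0.35), and Mettl27, 185045 bases away on the other side, with 0.27 (SE 0.30). The next tested genes outward from Mgp were BC049715, at -0.53 (SE 0.57), and Rerg, at -0.28 (SE 0.38). Outward from Eln they were Eif4h, at 0.02 (SE 0.10), and Cldn4, 197796 bases away, at -1.55 (SE 0.84). That of Cldn4 was larger in size than the log2 fold change of Eln. None of the neighbours passed by edgeR.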

How the data were processed

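RNA of sorted lung endothelial cells was sequenced as paired-end reads after low-input amplification, per the labels' protocols. The authors deposited estimated counts per gene, in whole numbers and without normalization, and TPM values per gene; kallisto (version not stated) and mm10 appear in the submitters' processing notes. How transcripts were summed to genes, and with which annotation, is not stated. GENCODE M21 (mm10) supplied coordinates and a symbol for 24298 of 24520 identifiers, and RefSeq the promoters.

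Estimated counts, already whole, were tested with edgeR's quasi-likelihood test (edgeR 4.0.16, R 4.3.3) with TMM factors, filterByExpr and Benjamini-Hochberg adjustment over all 14667 tested genes at a threshold of 0.05, on all 6 libraries with no covariate. The standard error is the log2 fold change divided by the square root of F. CPM values are scaled by TMM, and levels between genes use TPM. Library totals make 3 counts equal to 0.0795 to 0.102 CPM. Floors cover counting error only. Strand is not stated to have been kept. Alternatives were DESeq2 1.42.0, other factors and filters, the replicate number as a block, sex as a covariate, male libraries only, limma 3.58.1 on log2(TPM + 1) and log2(TPM + 0.1), and leaving out each library. The fits were tested on simulated data. All pairs of libraries of a label differed by more than counting error (chi-square over its degrees of freedom, 44.8 to 99.2).

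The members and all gene lists were chosen with earlier results of these data known. Named were Dnmt3a, the 10 genes, Col3a1, of each pathway list the genes called (up to 4) or otherwise the 2 highest by mean TPM, of each marker list the 2 highest by mean TPM, and the 5 nearest profiles to Mgp and to Eln among genes whose mean count reached 50. Pecam1, Tll1, Pcolce2, Enpp1, Vegfc, Ggcx, Dcn, Pdgfra, Matn1, Mus81 and the chromosome neighbours are outside that rule and were named after their values were seen. Of each protein only background is given, since no protein sequences were used here.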

Additional observations from a re-analysis of the deposited data

How the results depend on the processing

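Over 17 alternatives (15 for Fbln1, which 2 stricter filters removed) each of the 10 genes kept the sign of its log2 fold change, except Fbln2 (positive without KO replicate 2) and Fbn1 (negative without KO replicate 1 and in male libraries only), neither of which passed in any fit. The median over the 10 genes was 0.29 to 0.91 in these alternatives. Medians of the 6 related lists, -0.19 to 0.08 by edgeR on all 6 libraries, lay between -0.45 and 0.57, with changes of sign in 5 of them. Among males alone the median of the calcification regulators, 0.57, was above that of the 10 genes, 0.29. The count of genes called, 5 by edgeR, was 413 by DESeq2, 9 by limma on log2(TPM + 0.1), 2 with sex as a covariate and 0 among males alone (where 1572 had an unadjusted p under 0.05); it was 1 to 4 without single libraries. The count among the 10 genes, 1 by edgeR, was 3 by DESeq2, 0 with sex as a covariate (6 at an unadjusted p under 0.05), 0 among males alone (4) and 0 to 1 without single libraries, where 4 to 7 had an unadjusted p under 0.05. Fewer samples or degrees of freedom enter the sex and single-library fits. With the replicate number as a block, 0 genes were called (1472 at an unadjusted p under 0.05) and 0 of the 10 (5). Deviations of same-numbered libraries from their group means correlated at 0.27, -0.05 and -0.18 over genes for numbers 1, 2 and 3, so the numbers were not taken as pairs; only replicate 1 correlated best with its own number. In the alternatives that were run Mgp kept a log2 fold change of 1.38 to 1.57 and Eln of 1.16 to 1.66, while Lox ranged from 0.57 to 1.81. The low counts of Fbln1 and Lox limit what can be seen of them.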
